A study of Mus musculus with 30 samples.

Results

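The genes described here are 38 genes of insulin, mTOR, AMPK and FOXO signaling, taken by name and chosen with earlier results of these data known. They comprise 1 ligand and 2 receptors (Igf1, Insr and Igf1r), 4 adaptors that bind the receptors (Irs1, Irs2, Grb10 and Grb14) and 11 genes of phosphoinositide 3-kinase (PI3K) and its outputs. The others are 3 forkhead transcription factors, 10 genes of the mTOR branch and 7 genes of the AMP-activated protein kinase (AMPK) and its upstream kinase (Stk11). All 38 were found among the 20764 genes of the heart table and among the 54532 genes of the HL-1 cell table. Insulin and IGF1 activate their receptors, which recruit the insulin receptor substrates IRS1 and IRS2 and through them PI3K, PDPK1 and the kinase AKT. AKT keeps FOXO factors out of the nucleus and releases mTOR complex 1, which drives protein synthesis, whereas AMPK is activated when cellular energy is low and restrains mTOR complex 1. In heart muscle the pathway governs glucose uptake, cell size and the balance between synthesis and breakdown of protein.

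The study asked how age and nicotinamide riboside (NR), a precursor of NAD+, alter day and night gene expression in the heart. Heart tissue came from female mice kept under a light and dark cycle of equal lengths with free access to chow. Their strain is labelled C57BL6 and described in the study's methods as a mixed C57Bl6J/N background. Hearts were collected at Zeitgeber time (ZT, hours after lights on) 10, in the day, and ZT22, in the night, from young mice of 2 months and old mice of 12 months. Old mice drank plain water (old H2O) or, from the age of 2 months, water with NR at 3 g/L (old NR), and young mice drank plain water. Each of these 6 groups held 3 hearts, 1 library per mouse. HL-1, a line derived from an atrial tumor of a female C57BL6/J mouse, gave 4 groups of 3 libraries. These were untreated, treated with FK866 (an inhibitor of NAMPT, the enzyme that recycles nicotinamide to NAD+), with FK866 plus NR, or with FK866 plus NR plus Ex527, an inhibitor of the NAD+-dependent deacetylase SIRT1. Cell replicates were cultured in separate wells, per the study's methods, which the labels do not state for single HL-1 libraries.

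The deposited counts of reads per gene summed to between 3922137 and 7562215 per heart and between 21337922 and 35000109 per HL-1 library. A normalized count below is a count divided by the effective size of its library and multiplied by the mean effective size in hearts or in HL-1 cells. Tests were edgeR's quasi-likelihood tests over all genes, adjusted by Benjamini-Hochberg, and a gene was called in hearts at an adjusted p under 0.05. In HL-1 cells the threshold was 0.01 together with a fold change over 1.5 in either direction. All 38 genes entered the heart tests and 36 the HL-1 tests, where Igf1 and Grb10 had too few counts. Log2 fold changes between times are ZT10 against ZT22, so a positive value is higher in the day. Hearts of the old H2O group at each time enter both the comparison with young hearts and that with NR, and are shared in the same way by the interactions. For 5 of the 38 genes (Irs1, Tsc2, Rps6kb1, Prkab2 and Stk11) an exon lies opposite an exon of another protein-coding gene, and whether counting used strand is not given in the sources used here. The heart libraries came from a stranded kit and reads on more than 1 gene were left out of their counts, so without strand reads of such a pair would be lost there. In the HL-1 libraries, whose kit is not named as stranded, they could not be told apart.

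Before the results, 2 features of the libraries have to be stated. The libraries labelled HL-1 cardiomyocyte did not carry the markers of that cell type. Actc1 and Myl2 had 0 counts in all 12 libraries, Myh6 had 0 to 6 counts and Tnnt2 4 to 43, and the summed level of the 5 cardiomyocyte markers was 0.262 to 4.36 CPM (counts scaled to 1000000 per library) against 4501 to 6778 CPM in hearts. The atrial marker Nppa had 0 to 3 counts, whereas of the 5 fibroblast markers Col1a1 and Dcn stood at 466 to 763 and 97.5 to 183 CPM. The rest of that list was lower, with Col1a2 at 10.8 to 32.1 CPM (160 to 292 in hearts) and Pdgfra at 12.1 to 32.9 CPM (109 to 161 in hearts). Lum was at 0 counts in 10 of the 12 libraries. Results from these libraries are therefore given as those of libraries labelled HL-1, and the part of cell identity in them was not tested. Among the hearts, young ZT22 replicate 2 stood apart in several of the 38 genes, with the highest normalized count of all 18 hearts for Irs1, Irs2 and Pdpk1. Results that rest on it are given with and without it. In the summed level of the 5 atrial markers, young ZT10 replicate 1 stood at 744 CPM, against 185 and 154 CPM in the other hearts of its group, and old H2O ZT22 replicate 2 at 530.0 CPM, against 123 and 135 CPM.

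In hearts, 15 of the 38 genes were called in at least 1 comparison and 23 in none, beside 28.5% of all genes tested called in at least 1. Between ZT10 and ZT22, 8 of 38 were called in young hearts, 5 higher and 3 lower in the day, beside 14.4% of all 15443 genes tested. The 4 endothelial markers, all detected, summed to 1184 to 1248 CPM in young hearts at ZT10 and 1373 to 1508 CPM at ZT22, and their part in these calls was not tested. Old H2O hearts had 5 called (2 higher, 3 lower) beside 4.2% of all genes, and old NR hearts had 5 called (2 higher, 3 lower) beside 5.37%. With age, 1 gene was called at ZT10 (higher) beside 5.87% of all genes, and 6 at ZT22 (5 higher, 1 lower) beside 14.1%. In 3 genes the day to night difference itself differed between old H2O and young hearts (age by time interaction, 1 positive and 2 negative), beside 6.89% of all genes. With NR, 1 gene was called at ZT10 (lower), beside 0.285% of all genes. At ZT22 and in the NR by time interaction edgeR called 0 genes of the list, beside 0.35% and 0.343% of all genes, and DESeq2 also called 0 in both. At an unadjusted p under 0.05, 7 of the 38 passed at ZT22 and 6 in the interaction, beside 11.2% and 10.3% of all genes. Values of the 2 groups did not overlap in 10, 10 and 11 of the 38 genes between times in young, old H2O and old NR hearts. This was so in 30.6%, 22.2% and 22.2% of all genes. With age it was 14 at ZT10 and 9 at ZT22, beside 27.8% and 28.2%, and with NR 10 and 9, beside 18.8% and 14.7%. Single hearts moved some of the counts of calls by over 1.5 times. Without young ZT22 replicate 2, 5 genes were called between times in young hearts and 2 with age at ZT22, and without old H2O ZT22 replicate 2, 1 was called between times in old H2O hearts and 2 with age at ZT22. Without old H2O ZT10 replicate 1, 3 were called in old H2O hearts, and without replicate 3 of that group 0 were called with age at ZT10. In old NR hearts 2 were called without ZT10 replicate 3 or ZT22 replicate 2, and 3 without ZT10 replicate 1, ZT10 replicate 2 or ZT22 replicate 3. The interaction with age had 5 without young ZT10 replicate 3 or young ZT22 replicate 1, and the comparison with NR at ZT10 had 0 without any 1 of its 6 hearts.

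The typical change in the list was small. The median absolute log2 difference between ZT10 and ZT22 over the 38 genes was 0.083 in young hearts, beside 0.16 over all genes tested, and the 30 genes not called all lay between -0.17 (Gsk3b) and 0.18 (Prkab2). Of the genes not called, 30 of 33 lay within 0.2 of 0 in old H2O hearts and 28 of 33 in old NR hearts, with -0.31 (Igf1r) and -0.38 (Igf1) the farthest. With age these were 31 of 37 at ZT10 and 26 of 32 at ZT22, with -0.34 (Igf1r) and -0.51 (Irs2) the farthest. With NR they were 33 of 37 at ZT10 and 33 of 38 at ZT22, with -0.49 (Tbc1d1) and -0.48 (Irs2) the farthest. In the other 8 heart comparisons too the median of the list was the smaller of the pair, for example 0.13 beside 0.20 in the age by time interaction and 0.049 beside 0.099 with NR at ZT22. All genes tested reach down to an average count of 5, while group means in the list ran from 176 (Igf1) to 2538 (Insr). The part of count level in these medians, and in the shares that follow, was not tested. At an unadjusted edgeR p under 0.05, the list's share was the smaller in young hearts (23.7% beside 26.8%). In the other 8 heart comparisons it was the larger, for example 28.9% beside 21.8% in the age by time interaction and 18.4% beside 11.2% with NR at ZT22. The map of log2 fold changes shows most of the list near 0 with a few genes far from it, Irs1 above all.

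**Figure D1:**
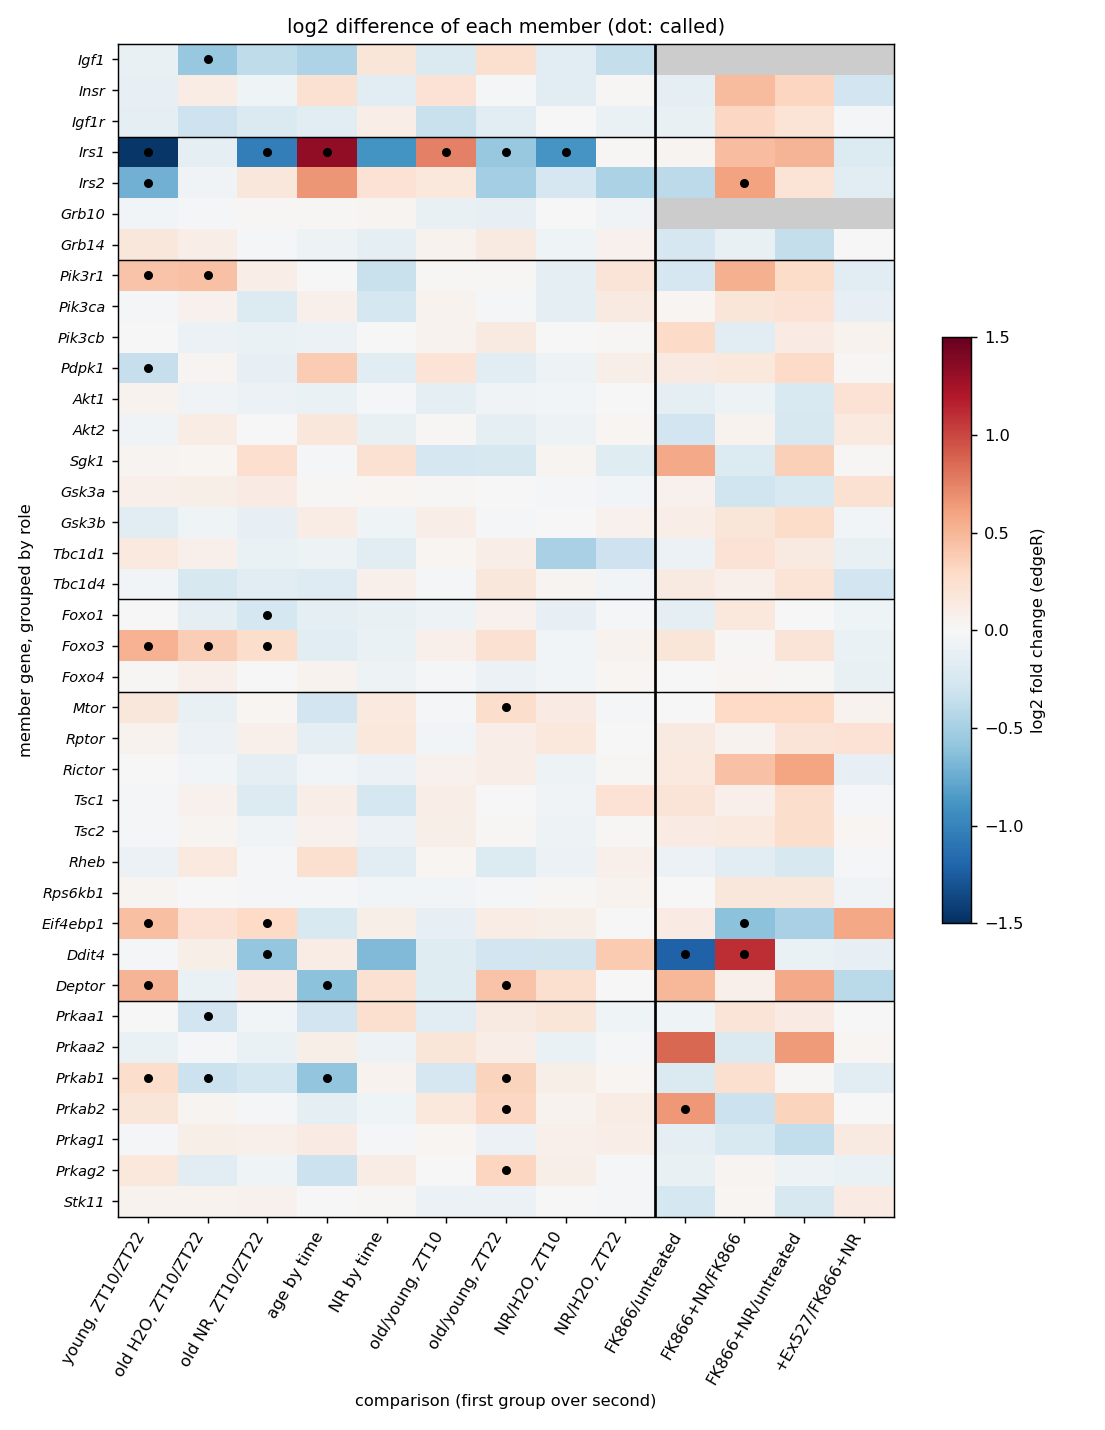
Log2 fold change of each of the 38 genes (rows, ordered by role) in each of the 13 comparisons (columns), on a color scale in log2 units, with a dot on each called change and gray for genes that were not tested. Irs1 reaches -1.46 between times in young hearts and 1.33 in the age by time interaction, and in the libraries labelled HL-1 Ddit4 reaches -1.22 with FK866 and 1.11 with NR added.

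Levels differed widely among the 38 genes, compared here per kilobase of gene length as CPM per kilobase averaged over the groups. In hearts the highest was Akt1, a main AKT kinase, at 70.4 CPM per kb, followed by Ddit4 at 51.0, Prkaa2 at 45.4, Stk11 at 42.5 and Foxo4 at 40.3. The lowest were Igf1 at 4.06, Rictor at 4.09, Igf1r at 5.25 and Irs1 at 7.10, and the insulin receptor Insr stood at 30.3. Of the genes for the catalytic alpha subunit of AMPK, Prkaa2 exceeded Prkaa1 (14.1 CPM per kb) in hearts, whereas in the libraries labelled HL-1 Prkaa1 stood at 28.9 and Prkaa2 at 0.332. The beta subunits Prkab2 and Prkab1 stood at 30.6 and 24.6 in hearts and at 2.48 and 22.4 in those libraries. Irs1 and Irs2 stood at 7.10 and 7.98 in hearts and at 1.46 and 14.4 in the libraries labelled HL-1. Hearts and cells were normalized separately and their reads were processed differently. Duplicate and mitochondrial reads were removed from the heart counts, and the study's methods describe no such step for HL-1. These levels were set side by side without a test.

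Among the ligand and receptors, Igf1 (ENSMUSG00000020053, chr10:87858265-87937042, plus strand), the growth factor that many tissues make locally, was called in 1 heart comparison, between the times in old H2O hearts. Its normalized counts there were 179.8, 199.6 and 213 at ZT10 and 287, 299 and 291 at ZT22, so that every day value lay under every night value. The log2 fold change was -0.57 ± 0.13 (SE, edgeR adjusted p = 0.0137). In young hearts the times overlapped, at 230.1, 281 and 171 in the day against 234, 264 and 241 in the night, and so did those of old NR hearts, at 182, 177 and 168 against 175, 246 and 254. The difference in old H2O hearts was not shown to differ from either, with -0.46 (adjusted p = 0.151) in the age by time and 0.18 (adjusted p = 0.779) in the NR by time interaction. The Igf1 call was lost without old H2O ZT10 replicate 1 (-0.52, adjusted p = 0.0755) and without old H2O ZT22 replicate 2 (-0.55, adjusted p = 0.0524). All 4 macrophage markers (Csf1r, Adgre1, Cd68 and Cd163) were detected in every group, and their sum in old H2O hearts was 189 to 219 CPM at ZT10 and 206 to 234 CPM at ZT22, against 159 to 175 and 141 to 171 CPM in young hearts. Their part in the Igf1 values was not tested. In heart tissue, fewer cells of a type and less RNA per cell cannot be told apart. The receptors Insr and Igf1r were called in no heart comparison, and the widest difference of Igf1r was -0.34 with age at ZT10 (adjusted p = 0.0682).

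Of the adaptors, Irs1 (ENSMUSG00000055980, chr1:82233101-82291416, minus strand) changed most of the 38 genes in hearts. In young hearts Irs1 had 195, 233 and 229.9 normalized counts at ZT10 and 437, 805 and 554 at ZT22, means of 219 ± 21.4 and 599 ± 188 (SD, n = 3). Every night value was above every day value. In old H2O hearts the same gene had 305, 361 and 448 in the day and 340.0, 397 and 463 in the night, which overlapped. In old NR hearts it had 176, 224 and 202 in the day and 403, 374 and 459.5 in the night, again with no overlap. The day values of old NR hearts thus overlapped those of young hearts, and those of old H2O hearts lay above both, while the night values of old H2O and old NR hearts overlapped.

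The log2 fold change of Irs1 between ZT10 and ZT22 was -1.46 ± 0.18 (SE, edgeR adjusted p = 5.55e-06) in young, -0.13 ± 0.17 (SE, edgeR adjusted p = 0.73) in old H2O and -1.03 ± 0.18 (SE, edgeR adjusted p = 0.000918) in old NR hearts. The calls in young and old NR hearts held without each library and under every other setting. The difference between the old H2O and young values was itself called, with an age by time interaction of 1.33 ± 0.25 (SE, edgeR adjusted p = 0.00238), and it too held in every alternative. The NR by time interaction of Irs1 was -0.90 ± 0.25 (SE, edgeR adjusted p = 0.145) and was not called, so the old NR and old H2O differences were not shown to differ. Fitting only the groups compared called it, as did the fit with replicate numbers as a block. The 5 atrial markers summed at ZT10 and ZT22 to 154 to 744 and 126 to 260.2 CPM in young hearts. In old H2O hearts these sums were 388 to 505 and 123 to 530.0 CPM, and in old NR hearts 112 to 130.1 and 160 to 225 CPM. In the age and NR by time interactions 1 and 4 of the 5 had an unadjusted edgeR p under 0.05, and 0 were called. The part of these markers in the Irs1 values was not tested.

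**Figure D2:**
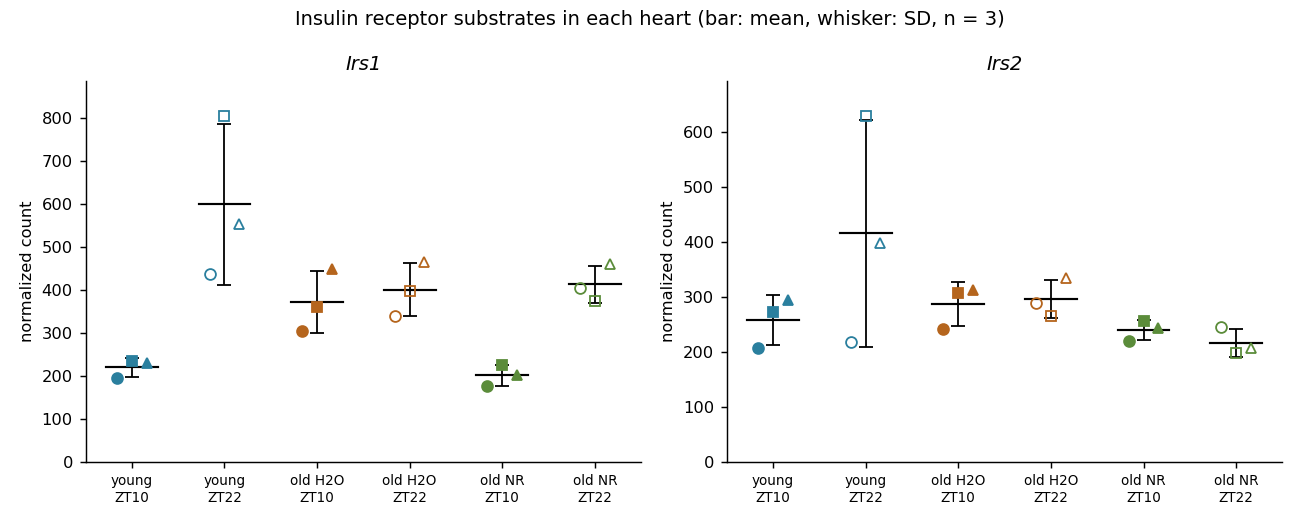
Normalized counts of Irs1 (left) and Irs2 (right) in each of the 18 hearts, by age, drinking water and time, with symbol shape for the replicate number, a line at the mean and whiskers for the SD. Irs1 in the day lies between 176 and 233 in young and old NR hearts, against 305 to 448 in old H2O hearts, and young ZT22 replicate 2 is the highest heart for both genes.

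At single times, Irs1 was higher in old H2O than in young hearts at ZT10, with a log2 fold change of 0.76 ± 0.19 (SE, edgeR adjusted p = 0.017), the only call of the list in that comparison. It was lost without old H2O ZT10 replicate 3 (0.61, adjusted p = 0.105) and without young ZT10 replicate 1 (0.68, adjusted p = 0.0779). The 5 atrial markers summed to 388 to 505 CPM in these old hearts and 154 to 744 CPM in the young, which overlap, 0 of the 5 were called, and their part in the Irs1 value was not tested. At ZT22 Irs1 was lower in old H2O than in young hearts, with -0.57 ± 0.16 (SE, edgeR adjusted p = 0.0202), although the groups overlapped. That call was lost without young ZT22 replicate 2 (-0.29, adjusted p = 0.205), without old H2O ZT22 replicate 1 (-0.48, adjusted p = 0.0685) and without old H2O ZT22 replicate 2 (-0.56, adjusted p = 0.0658). With NR at ZT10, Irs1 was lower, with -0.88 ± 0.18 (SE, edgeR adjusted p = 0.0397), again the only call of the list. Leaving out any 1 of the 6 hearts ended that call, with adjusted p values from 0.0675 to 0.269 and log2 values from -0.99 to -0.73. In the same hearts the 5 atrial markers, all detected, summed to 388 to 505 CPM in old H2O and 112 to 130.1 CPM in old NR, and 3 of the 5 were called lower with NR. The 5 fibroblast markers summed to 945 to 1083 against 785 to 899.5 CPM and the 4 red blood cell markers to 137 to 161 against 114 to 129.6 CPM. The groups did not overlap in either sum, and 0 of these 9 were called. The unscaled counts behind these 2 sums did overlap, at 5108 to 5565 against 4901 to 5439 and at 741 to 809 against 717 to 786. Library totals were 4935128 to 5905919 in old H2O and 5619294 to 6578644 in old NR hearts, and the part of depth in these sums was not tested. The part of the 3 marker lists in the Irs1 value was not tested.

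Irs2 (ENSMUSG00000038894, chr8:10984681-11008458, minus strand), the other main insulin receptor substrate, had 207, 272 and 294 normalized counts at ZT10 and 218, 629 and 398 at ZT22 in young hearts. The highest night value came from replicate 2, and the lowest lay within the day values. The log2 difference of Irs2 was -0.72 ± 0.22 (SE, edgeR adjusted p = 0.0329), and -0.28, adjusted p = 0.397, without replicate 2, which ended the call. It was also lost without young ZT10 replicate 1 (-0.59, adjusted p = 0.141), young ZT10 replicate 2 (-0.77, adjusted p = 0.0695) or young ZT22 replicate 3 (-0.76, adjusted p = 0.057), and DESeq2 gave an adjusted p of 0.0958. Old H2O hearts (-0.05) and old NR hearts (0.17) gave no call for Irs2. The adaptors Grb10 and Grb14, which bind activated receptors and dampen their signal, were called in no heart comparison.

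The upstream sequences of Irs1 and Irs2 are shown because both genes were called higher in young hearts at night (Irs2 with replicate 2 included) and because both windows hold the E-box letters CACGTG, the sequence that CLOCK and BMAL1 are known to bind. Each window runs from 250 bases before to 50 bases after the RefSeq start of the gene (build GRCm38.p6, minus strand for both), and capitals mark the E-box. The Irs1 window is chr1:82291390-82291689 and the Irs2 window is chr8:11008880-11009179, the second lying upstream of the gene's end in the deposited annotation.
Irs1: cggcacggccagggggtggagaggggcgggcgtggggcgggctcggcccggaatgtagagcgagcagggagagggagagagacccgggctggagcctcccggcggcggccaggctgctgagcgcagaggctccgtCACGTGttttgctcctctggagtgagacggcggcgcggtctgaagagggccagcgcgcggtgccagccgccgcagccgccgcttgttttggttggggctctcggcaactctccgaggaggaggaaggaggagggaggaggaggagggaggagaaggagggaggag
Irs2: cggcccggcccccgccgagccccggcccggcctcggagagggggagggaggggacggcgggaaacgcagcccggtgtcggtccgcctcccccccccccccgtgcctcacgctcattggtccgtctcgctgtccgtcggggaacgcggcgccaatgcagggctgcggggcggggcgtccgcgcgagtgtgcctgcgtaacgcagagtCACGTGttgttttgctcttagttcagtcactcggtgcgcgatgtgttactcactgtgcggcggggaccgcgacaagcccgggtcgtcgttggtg
The E-box begins 115 bases before the start in Irs1 and 44 bases before it in Irs2, within a run of 10 bases that both windows share, GTCACGTGTT. Of the 38 genes, 34 matched a RefSeq promoter by symbol (49 windows), and Deptor, Eif4ebp1, Foxo4 and Insr did not. CACGTG, which reads the same on both strands, was present in 4 of the 49 windows (8.16%), those of Irs1, Irs2, Rheb and Sgk1, beside 7.15% of all 32851 windows, so the list as a whole held it about as often as promoters in general. Between the times in young hearts Rheb gave -0.09 and Sgk1 0.04, neither called. Pik3r1, Pdpk1, Foxo3 and Prkab1, which were called there, lack the letters in their windows. The D-box letters TTATGNAA were in 0 of the 49 windows and in 3.38% of all. The forkhead letters TGTTTAC were in 2 windows of the list, of Akt1 and Stk11 (4.08% beside 3.65%), and the cAMP response element TGACGTCA was in 0, beside 1.79%. Both strands were searched, and these matches describe the letters only.

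In the PI3K group, Pik3r1 (ENSMUSG00000041417, chr13:101680563-101768217, minus strand), which encodes the p85-alpha regulatory subunit, was higher in the day in hearts on plain water at both ages. Young hearts had 2369, 2203 and 2221 normalized counts at ZT10 and 1637, 1525 and 1895 at ZT22. Old H2O hearts had 2455, 2262 and 2184 at ZT10 and 1598, 1752 and 1752 at ZT22, with every day value above every night value at both ages. Log2 fold changes were 0.43 ± 0.08 (SE, edgeR adjusted p = 0.00139) in young and 0.43 ± 0.08 (SE, edgeR adjusted p = 0.00366) in old H2O hearts, and both calls held in every alternative. Old NR hearts overlapped, at 2155, 1897 and 2229 in the day and 1989, 1931 and 1928 in the night, with 0.10 ± 0.08 (SE, edgeR adjusted p = 0.589). The NR by time interaction of Pik3r1 was -0.33 (adjusted p = 0.314) and was not called.

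Pdpk1, the kinase that phosphorylates AKT, SGK and S6 kinase in their activation loops, was lower in the day in young hearts. Its normalized counts were 710.4, 759 and 760.0 at ZT10 and 820.0, 1124 and 871 at ZT22, again with no overlap, and replicate 2 was the highest night heart. Its change was -0.34 ± 0.08 (SE, edgeR adjusted p = 0.00794) on the log2 scale and -0.19, adjusted p = 0.0767, without that replicate, which ended the call. In old H2O hearts Pdpk1 gave 0.04 and in old NR hearts -0.13, neither called. The remaining 9 genes of the group were called in no heart comparison, including the catalytic subunits Pik3ca and Pik3cb, the kinases Akt1, Akt2 and Sgk1, the glycogen synthase kinases Gsk3a and Gsk3b, and Tbc1d1 and Tbc1d4, which restrain the movement of glucose transporters to the membrane. Tbc1d1 had the widest uncalled difference with NR at ZT10, -0.49 ± 0.14 (SE, edgeR adjusted p = 0.19). Its normalized counts were 307, 316 and 408 in old H2O and 251, 252 and 230.2 in old NR hearts, without overlap, as in 18.8% of all genes.

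Among the forkhead factors, Foxo3 (ENSMUSG00000048756, chr10:42181841-42276755, minus strand), a transcription factor of stress resistance and protein breakdown genes, was higher in the day at both ages and with NR. Young hearts had 1698, 1603 and 1669.5 normalized counts in the day and 1052, 1116 and 1297 in the night. Old H2O hearts had 1793, 1720.4 and 1721 in the day and 1465, 1286 and 1325 in the night. Old NR hearts had 1688, 1682 and 1715 in the day and 1528, 1322 and 1384 in the night. Day and night values did not overlap in any of the 3 pairs, and the day values of the groups were close to each other. Such separation was found in 30.6%, 22.2% and 22.2% of all genes in young, old H2O and old NR hearts. The log2 fold changes were 0.52 ± 0.08 (SE, edgeR adjusted p = 7.89e-05) in young, 0.36 ± 0.08 (SE, edgeR adjusted p = 0.0071) in old H2O and 0.27 ± 0.08 (SE, edgeR adjusted p = 0.0429) in old NR hearts. The age by time interaction (-0.16, adjusted p = 0.449) and the NR by time interaction (-0.10, adjusted p = 0.798) were not called.

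The young call of Foxo3 held in every alternative, whereas the old H2O call was lost without old H2O ZT22 replicate 2 (0.33, adjusted p = 0.0535). In old NR hearts the Foxo3 call was lost without any 1 of 5 hearts, namely ZT10 replicate 1 (0.27, adjusted p = 0.103), ZT10 replicate 2 (0.27, adjusted p = 0.0813), ZT10 replicate 3 (0.27, adjusted p = 0.115), ZT22 replicate 2 (0.22, adjusted p = 0.202) and ZT22 replicate 3 (0.25, adjusted p = 0.133). Foxo1 was called in old NR hearts alone, at 375, 394 and 365 in the day and 471, 445 and 446 in the night, with -0.26 ± 0.07 (SE, edgeR adjusted p = 0.0419). Every day value lay under every night value, yet leaving out any 1 of the 6 hearts ended the Foxo1 call, with adjusted p values from 0.0584 to 0.183. Foxo4 was called in no heart comparison.

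In the mTOR branch, Eif4ebp1 (ENSMUSG00000031490, chr8:27260329-27276674, plus strand), which encodes the translation repressor 4E-BP1, was higher in the day. Young hearts had 490.2, 498 and 455 normalized counts at ZT10 and 342, 339 and 378 at ZT22, and old NR hearts 476, 459 and 475 in the day and 400.2, 386 and 363 in the night. Old H2O hearts had 448, 434 and 446 in the day and 402, 382 and 367 in the night. In all 3 pairs the day values lay above the night values. The log2 fold changes were 0.45 ± 0.06 (SE, edgeR adjusted p = 4.34e-05) in young and 0.30 ± 0.06 (SE, edgeR adjusted p = 0.00395) in old NR hearts, both called in every alternative, and 0.21 ± 0.06 (SE, edgeR adjusted p = 0.0578) in old H2O hearts, which missed the threshold. The age by time interaction was -0.23 (adjusted p = 0.121) and the NR by time interaction 0.09 (adjusted p = 0.778), so the 3 groups were not shown to differ.

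Deptor (ENSMUSG00000022419, chr15:55112317-55259271, plus strand), which encodes a protein that binds and inhibits mTOR, had 499, 492 and 413 normalized counts in the day and 318, 348 and 323 in the night in young hearts, with no overlap. In old H2O hearts it had 371, 439 and 429 in the day and 346, 444 and 518 in the night, and in old NR hearts 472, 505 and 488 in the day and 388, 493 and 448 in the night, and in both the times overlapped. Deptor changed by 0.51 ± 0.11 (SE, edgeR adjusted p = 0.00376) in young and -0.10 ± 0.11 (SE, edgeR adjusted p = 0.659) in old H2O hearts, and the difference between them was called (age by time interaction -0.61 ± 0.16, SE, edgeR adjusted p = 0.0212). The interaction was lost without old H2O ZT10 replicate 1 (-0.55, adjusted p = 0.0599), old H2O ZT22 replicate 3 (-0.46, adjusted p = 0.0759), young ZT10 replicate 1 (-0.56, adjusted p = 0.0522), young ZT10 replicate 2 (-0.57, adjusted p = 0.0582) or young ZT22 replicate 3 (-0.59, adjusted p = 0.0501). At ZT22 Deptor was higher in old H2O than in young hearts by 0.43 ± 0.11 (SE, edgeR adjusted p = 0.0137). That call was lost without old H2O ZT22 replicate 3 (0.28, adjusted p = 0.122) or young ZT22 replicate 3 (0.41, adjusted p = 0.0501).

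Ddit4 (ENSMUSG00000020108, chr10:59949669-59951834, minus strand), whose product REDD1 restrains mTOR complex 1 under stress and glucocorticoids, was called in old NR hearts. Its normalized counts were 299.8, 482 and 409 in the day and 635, 629.6 and 530.2 in the night, every night value above every day value. On the log2 scale this was -0.58 ± 0.14 (SE, edgeR adjusted p = 0.0135), beside 0.08 in old H2O and -0.02 in young hearts, and the NR by time interaction was -0.66 ± 0.20 (SE, edgeR adjusted p = 0.205) and was not called. Without old NR ZT10 replicate 1, the lowest of the 18 hearts, the change was -0.42, adjusted p = 0.0878. The call also missed the threshold without old NR ZT10 replicate 3 (-0.59, adjusted p = 0.0505) or old NR ZT22 replicate 2 (-0.53, adjusted p = 0.0673). Mtor itself, the kinase of both complexes, was higher in old H2O than in young hearts at ZT22, at 888, 915 and 1123 against 845, 795 and 820.3 normalized counts, with 0.26 ± 0.09 (SE, edgeR adjusted p = 0.0491). This call near the threshold was lost without each of 5 of the 6 hearts, and without old H2O ZT22 replicate 3 the log2 value was 0.14, adjusted p = 0.316. It was also lost without old H2O ZT22 replicate 2 (0.31, adjusted p = 0.0504) and without young ZT22 replicate 1 (0.28, adjusted p = 0.0672), replicate 2 (0.24, adjusted p = 0.146) and replicate 3 (0.26, adjusted p = 0.113), and in 4 other settings, among them DESeq2 (0.26, adjusted p = 0.0703). The complex subunits Rptor and Rictor, the inhibitors Tsc1 and Tsc2, the activator Rheb and the S6 kinase Rps6kb1 were called in no heart comparison.

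Within AMPK, the regulatory beta subunit Prkab1 (ENSMUSG00000029513, chr5:116013586-116024508, minus strand) went in opposite directions with time at the 2 ages. In young hearts it had 406, 466 and 477 normalized counts in the day and 429.6, 334 and 363 in the night, with the highest night heart above the lowest day heart. Old H2O hearts had 369, 356 and 407 in the day and 502, 470.4 and 446 in the night, and old NR hearts 402, 385 and 415 in the day and 470.0, 478 and 491 in the night, both with every day value under every night value. Log2 fold changes were 0.27 ± 0.08 (SE, edgeR adjusted p = 0.0339) in young, -0.32 ± 0.08 (SE, edgeR adjusted p = 0.0289) in old H2O and -0.26 ± 0.08 (SE, edgeR adjusted p = 0.0559) in old NR hearts, the last not called. The age by time interaction was -0.59 ± 0.12 (SE, edgeR adjusted p = 0.00433) and held in every alternative.

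The separate calls of Prkab1 at each age were less stable. In young hearts the call was lost without young ZT10 replicate 2 (0.24, adjusted p = 0.125), ZT10 replicate 3 (0.23, adjusted p = 0.14), ZT22 replicate 2 (0.19, adjusted p = 0.201) or ZT22 replicate 3 (0.25, adjusted p = 0.108), and by DESeq2 (0.27, adjusted p = 0.0632). In old H2O hearts it was lost without ZT10 replicate 1 (-0.31, adjusted p = 0.0876), ZT10 replicate 2 (-0.28, adjusted p = 0.129), ZT22 replicate 1 (-0.29, adjusted p = 0.0613) or ZT22 replicate 2 (-0.32, adjusted p = 0.0828). At ZT22 Prkab1 was higher in old H2O than in young hearts by 0.33 ± 0.08 (SE, edgeR adjusted p = 0.00975), a call lost without young ZT22 replicate 2 (0.25, adjusted p = 0.0717).

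The catalytic subunit Prkaa1 was lower in the day in old H2O hearts, at 333, 347 and 307 against 385, 404 and 413 normalized counts in the night, with -0.29 ± 0.07 (SE, edgeR adjusted p = 0.0136). The call was lost without ZT10 replicate 3 (-0.24, adjusted p = 0.0935), ZT22 replicate 2 (-0.28, adjusted p = 0.0528) or ZT22 replicate 3 (-0.27, adjusted p = 0.0669), and by DESeq2 (-0.29, adjusted p = 0.0517). Its more abundant paralog Prkaa2 gave -0.02 and was not called. At ZT22 the beta subunit Prkab2 and the gamma subunit Prkag2 were higher in old H2O than in young hearts. Prkab2 had 982, 913 and 806 normalized counts in old H2O and 823, 604 and 753 in young hearts, which overlapped, with 0.31 ± 0.09 (SE, edgeR adjusted p = 0.0327). Without young ZT22 replicate 2, the lowest of the 6, Prkab2 gave 0.19, adjusted p = 0.207, and the call was also lost without old H2O ZT22 replicate 1 (0.26, adjusted p = 0.088), old H2O ZT22 replicate 2 (0.29, adjusted p = 0.095) or young ZT22 replicate 3 (0.34, adjusted p = 0.0548).

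Prkag2 had 600.2, 547 and 486 against 436, 393 and 465 normalized counts in the same comparison, with 0.32 ± 0.10 (SE, edgeR adjusted p = 0.0281) and no overlap. Its call was lost without old H2O ZT22 replicate 1 (0.27, adjusted p = 0.0802), old H2O ZT22 replicate 2 (0.32, adjusted p = 0.0801), young ZT22 replicate 1 (0.33, adjusted p = 0.0505) or young ZT22 replicate 2 (0.26, adjusted p = 0.139). Prkag1 and Stk11, the kinase upstream of AMPK, were called in no heart comparison. Marker sums also differed between the hearts compared at ZT22. The 4 endothelial markers, all detected, summed to 1373 to 1508 CPM in young and 1159 to 1363 CPM in old H2O hearts, and the 4 macrophage markers, all called higher, to 141 to 171 and 206 to 234 CPM. Their part in the 6 calls of that comparison was not tested.

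**Figure D3:**
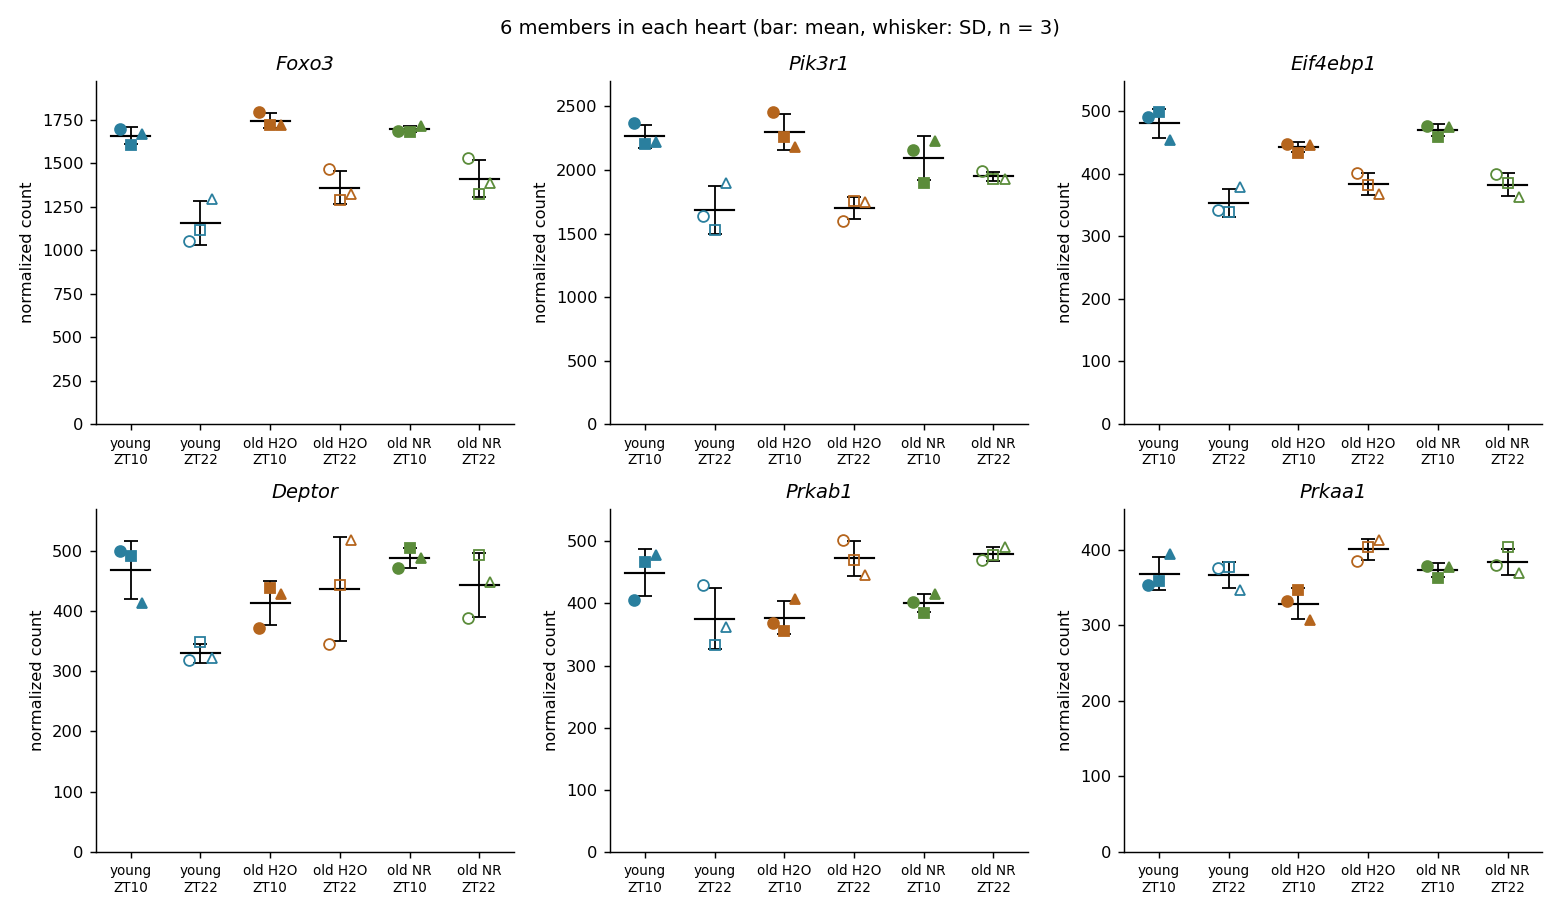
Normalized counts in each heart for 6 of the genes called in hearts (Foxo3, Pik3r1, Eif4ebp1, Deptor, Prkab1 and Prkaa1), by group, with symbol shape for the replicate number, a line at the mean and whiskers for the SD (n = 3). Foxo3 and Eif4ebp1 are higher in the day in all 3 pairs of groups, and Prkab1 is lower in the day in old hearts and higher on average in young hearts.

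The other genes of the same pathways were read from a list of 72, of which 70 were tested in hearts. Between ZT10 and ZT22, 9 of the 70 were called higher and 1 lower in young hearts, beside 14.4% of all genes tested. In old H2O hearts 3 were higher and 0 lower, beside 4.2%, and in old NR hearts 2 higher and 1 lower, beside 5.37%. The leading genes in young hearts were Foxo6 (0.98) and Eef2k (0.96), a kinase that slows translation elongation, and the 1 lower gene was the AMPK gamma subunit Prkag3 (-0.90). Trib1 led in old H2O (0.60) and in old NR hearts (0.78), followed by Sesn1 (0.37) in the first and Nprl2 (0.28) in the second, where Igfbp5 (-0.34) was lower. With age, 1 was higher (Rragd, 0.36) and 2 lower (Foxo6, -0.88, and Eef2k, -0.39) at ZT10, beside 5.87% of all genes. At ZT22, 5 were higher and 0 lower, beside 14.1%, led by Eef2k (0.60) and Strada (0.36). Called age by time interactions were those of Stradb (0.33) and Eef2k (-0.99), beside 6.89% of all genes. With NR edgeR called 0 of the 70 at ZT10, at ZT22 and in the NR by time interaction, beside 0.285%, 0.35% and 0.343% of all genes. There 9, 4 and 7 had an unadjusted p under 0.05, beside 10.1%, 11.2% and 10.3%. The median log2 fold change of this list was 0.03 in both young and old H2O hearts, beside 0.01 and 0.00 over all genes.

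The 20 genes known as FOXO targets, all tested, were, like the other pathway genes, chosen with earlier results of these data known. Of these, 7 were higher and 3 lower in the day in young hearts, beside 14.4% of all genes tested. Gadd45a, a growth arrest gene, led at 1.07, followed by Pik3ip1, an inhibitor of PI3K, at 1.02, and the lower ones included Bcl6 (-0.75) and Pdk4 (-0.52). Old H2O hearts had 3 higher, led by Klf15 (0.87) and Pik3ip1 (0.69), and 1 lower, the cell death gene Bcl2l11 (-0.41), beside 4.2% of all genes. Old NR hearts had 1 higher, Klf2 (0.45), and 2 lower, Bcl2l11 (-0.45) and Cited2 (-0.38), beside 5.37%. The difference between the ages was called for 5 of the 20, among them Bcl6 (1.10) and Gadd45a (-1.20), beside 6.89%. With age, 1 was higher (Bcl6, 0.66) and 1 lower (Fbxo21, -0.25) at ZT10, beside 5.87% of all genes. At ZT22, 6 were higher and 3 lower, beside 14.1%, led by Gadd45a (0.69) and by Bcl6 (-0.44) in the other direction. With NR, Fbxo21 was higher at ZT10 (0.35) and Klf15 at ZT22 (0.49), beside 0.285% and 0.35% of all genes called. The NR by time interaction was positive for Fbxo21 (0.41) and negative for Klf15 (-0.73), beside 0.343%. The targets thus moved in both directions.

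In the libraries labelled HL-1, 4 of the 36 genes tested were called in any comparison, namely Ddit4, Irs2, Eif4ebp1 and Prkab2, beside 7.71% of all genes tested. FK866 against no treatment gave 2 calls, 1 higher and 1 lower, beside 4.59% of all 14760 genes, and 6 (2 higher, 4 lower) beside 13.9% when no fold minimum was asked. NR added to FK866 gave 3, 2 higher and 1 lower, beside 4.81% of all genes, and 6 (4 higher, 2 lower) beside 15.3% with no fold minimum. These 2 comparisons share the FK866 libraries, and each of the 4 comparisons shares a group with at least 1 other, so the values are given side by side and no agreement is read from them. No group had NR without FK866, so FK866 plus NR against no treatment joins what was left of the inhibitor's difference with any effect of NR itself. It gave 0 calls by edgeR, beside 0.901% of all genes, and 1 (lower) beside 2.66% with no fold minimum. DESeq2 called 1, Rictor, the defining subunit of mTOR complex 2. Ex527 added to FK866 plus NR gave 0 calls by edgeR, beside 0.596% of all genes, and 0 by DESeq2, and with no fold minimum 1 (higher) beside 2.21%. At an unadjusted p under 0.05, 27 of the 36 passed in the third comparison and 10 in the fourth, beside 39.3% and 23.2% of all genes. Of the genes not called, 24 of 34 lay within 0.2 of 0 with FK866, 20 of 33 with NR added, 11 of 36 in FK866 plus NR against no treatment and 28 of 36 with Ex527. In the same order, the 2 groups did not overlap in 11, 17, 23 and 15 of the 36 genes. This was so in 36.6%, 42.8%, 45% and 33.3% of all genes. FK866 gave 1 call without untreated replicate 2, FK866 replicate 1 or FK866 replicate 3. NR gave 1 without FK866 replicate 2 or FK866 plus NR replicate 1, and 5 without FK866 replicate 3. The third comparison gave 2 without untreated replicate 1, and the fourth gave 1 without FK866 plus NR replicate 3.

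Ddit4 was the gene of the list that changed most. Its normalized counts were 2034, 1853 and 1978 in untreated libraries, 761, 990.4 and 774 with FK866, 1693, 2064 and 1703 with FK866 plus NR and 1644, 1726 and 1643 with Ex527 as well. The 3 FK866 libraries lay under all 9 others. Ddit4 changed by -1.22 ± 0.10 (SE, edgeR adjusted p = 9.58e-07) on the log2 scale with FK866 and 1.11 ± 0.10 (SE, edgeR adjusted p = 2.44e-06) when NR was added, and both calls held without each library and in every other setting. FK866 plus NR differed from no treatment by -0.10 ± 0.10 (SE, edgeR adjusted p = 0.441), and Ex527 from FK866 plus NR by -0.12 ± 0.10 (SE, edgeR adjusted p = 0.485), neither called.

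Irs2 had 2423, 2383 and 2386 normalized counts in untreated libraries, 1947, 1651 and 1870.0 with FK866, 2845, 2605 and 2853 with FK866 plus NR and 2496, 2667 and 2294 with Ex527. The FK866 libraries were again the lowest 3 of the 12. Irs2 rose with NR by 0.60 ± 0.07 (SE, edgeR adjusted p = 3.91e-05), whereas its difference with FK866, -0.40 ± 0.07 (SE, edgeR adjusted p = 0.00119), passed the adjusted p but not the fold minimum. The NR change fell just under the fold minimum without FK866 replicate 2 (0.55, adjusted p = 0.000103), FK866 plus NR replicate 1 (0.58, adjusted p = 0.000324) or FK866 plus NR replicate 3 (0.58, adjusted p = 0.000387). Irs1 in the same libraries was not called in any comparison, with 0.04 for FK866 and 0.46 for NR.

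Eif4ebp1 had 2957, 3248 and 3579 normalized counts in untreated libraries, 3499, 4114 and 3079 with FK866, 2141, 2278 and 2543 with FK866 plus NR and 3415, 3383 and 3580.1 with Ex527. The 3 FK866 plus NR libraries were the lowest of the 12. Eif4ebp1 fell with NR, with a log2 fold change of -0.62 ± 0.10 (SE, edgeR adjusted p = 0.00036), a change that went under the fold minimum without FK866 replicate 2 (-0.49, adjusted p = 0.0013) or FK866 plus NR replicate 1 (-0.56, adjusted p = 0.00289). It was the 1 gene of the list past the adjusted p, with no fold minimum, both in FK866 plus NR against no treatment, at -0.49 ± 0.10 (SE, edgeR adjusted p = 0.00942), and with Ex527, at 0.57 ± 0.10 (SE, edgeR adjusted p = 0.00312).

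The AMPK beta subunit Prkab2 rose with FK866 by 0.65 ± 0.14 (SE, edgeR adjusted p = 0.00316). It had 313, 234 and 233 normalized counts in untreated, 439.6, 346 and 435 in FK866, 355, 339 and 289 in FK866 plus NR and 374, 298 and 309 in Ex527 libraries, and the FK866 libraries lay above the untreated ones. The Prkab2 call was lost without untreated replicate 2 (0.57, adjusted p = 0.0206), untreated replicate 3 (0.58, adjusted p = 0.0131), FK866 replicate 1 (0.59, adjusted p = 0.0175) or FK866 replicate 3 (0.60, adjusted p = 0.0102). With NR added Prkab2 gave -0.32 ± 0.14 (SE, edgeR adjusted p = 0.0948). Prkaa2, a catalytic subunit that was scarce here, had 63.6, 42.4 and 32.9 normalized counts in untreated and 88.4, 78.3 and 84.3 in FK866 libraries, with 0.86 ± 0.22 (SE, edgeR adjusted p = 0.0106), which missed the threshold of 0.01, and DESeq2 called it. Its abundant paralog Prkaa1 gave -0.07 and Prkab1 -0.21, neither called.

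Past the adjusted p alone, FK866 also raised Sgk1, a kinase close to AKT, by 0.57 (adjusted p = 0.00323) and lowered Akt2 (-0.29, adjusted p = 0.00188) and Stk11 (-0.26, adjusted p = 0.0086). NR added to FK866 raised Pik3r1 (0.53, adjusted p = 0.000151) and Insr (0.48, adjusted p = 0.0071) and lowered Gsk3a (-0.30, adjusted p = 0.00275), all by edgeR. In the libraries with FK866 the 5 fibroblast markers, of which Lum was at 0 in 10 of the 12 libraries, summed to 649.8 to 667 CPM, under 839 to 893 CPM untreated, 787 to 813 CPM with NR and 822 to 913 CPM with Ex527. Col1a1 alone stood at 466 to 763 CPM over the 12 libraries. With Ex527 added to FK866 plus NR, 1 of the 4 fibroblast markers tested was higher and 3 lower past the adjusted p alone. The part of these markers in the changes of Ddit4, Irs2 and Prkab2 was not tested.

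**Figure D4:**
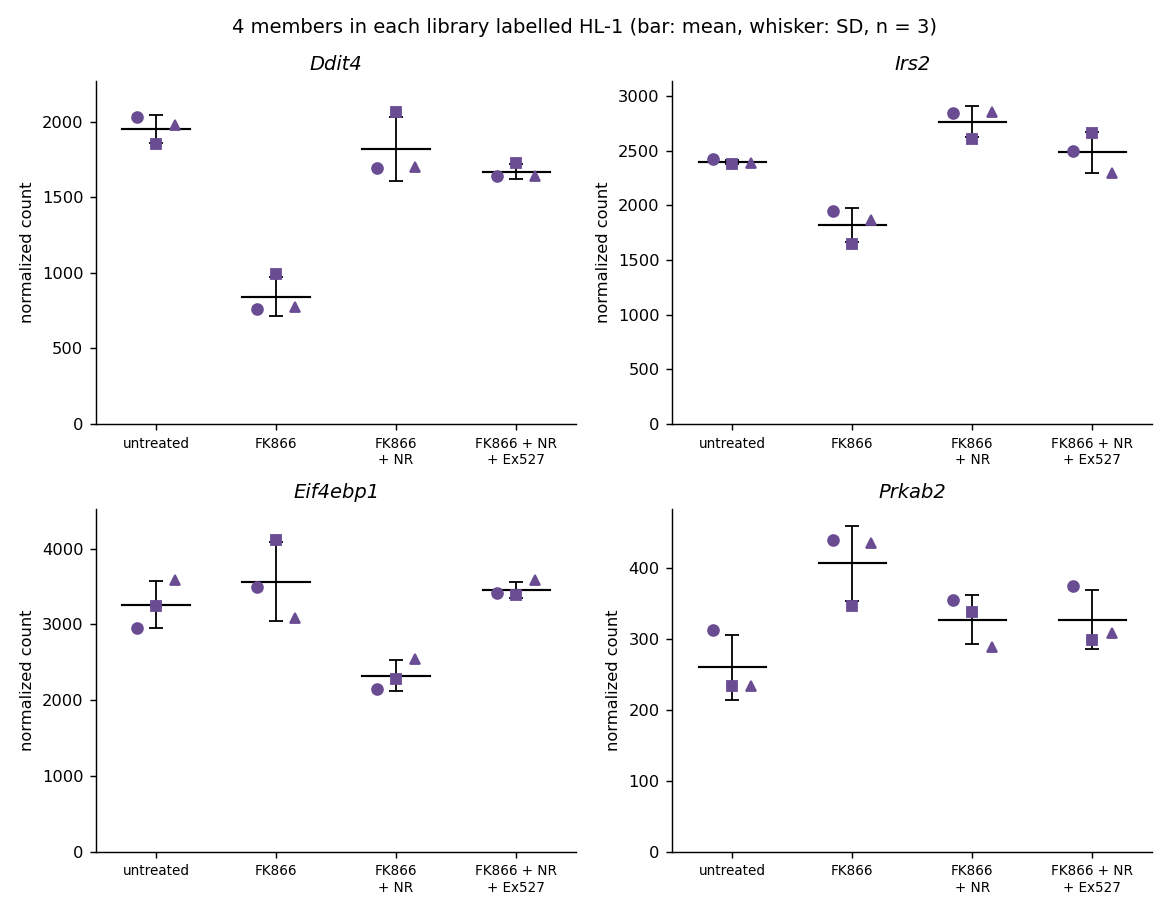
Normalized counts in each of the 12 libraries labelled HL-1 for the 4 genes called there, by treatment, with symbol shape for the replicate number, a line at the mean and whiskers for the SD (n = 3). The FK866 libraries are the lowest for Ddit4 (761 to 990) and Irs2 (1651 to 1947), and the FK866 plus NR libraries the lowest for Eif4ebp1 (2141 to 2543).

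In FK866 plus NR against no treatment, small differences ran mostly upward over the list. Of 36 genes, 26 had a positive log2 fold change, and the median was 0.19 beside 0.00 over all genes tested. Gene length moved with this. The 36 genes had a median length of 7624 bases, against 3866 for all genes tested, and 25 of them lay in the longest of 4 equal bins of genes, from 6210 bases on. The median log2 fold change of all genes in these bins, from the shortest to the longest, was -0.18, -0.10, 0.02 and 0.18, and the 25 genes of the list in the longest bin had a median of 0.21. In that bin, single libraries deviated from the mean of the 12 by 0.00, -0.07 and -0.17 in untreated, -0.03, -0.15 and 0.06 in FK866, 0.12, 0.07 and 0.08 in FK866 plus NR, and 0.04, 0.06 and 0.04 in Ex527 libraries, so untreated replicate 3 and FK866 replicate 2 were the lowest. With NR added to FK866 the medians of all genes in the 4 bins were -0.11, -0.07, 0.01 and 0.14, and the 25 genes of the list in the longest bin had a median of 0.15. Of the genes called higher in that comparison, Irs2 (6323 bases) lies in the longest bin and Ddit4 (1755 bases) in the shortest. Eif4ebp1, called lower there, lies in the second shortest. Of those past the adjusted p alone, Insr and Pik3r1, higher, lie in the longest bin, and Gsk3a, lower, in the second shortest. The part of length in the values of single genes was not tested.

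**Figure D5:**
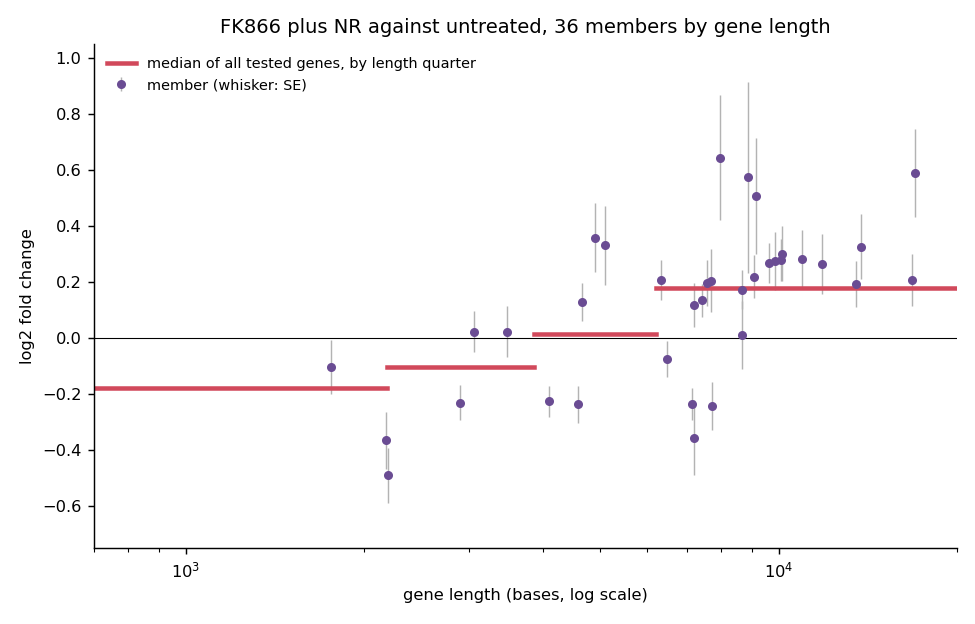
Log2 fold change in FK866 plus NR against no treatment (vertical axis, whiskers for the SE) against gene length in bases on a log axis, for the 36 genes tested in the libraries labelled HL-1, with the medians of all genes in 4 bins of length. The medians climb from -0.18 to 0.18, and the 25 genes of the list in the longest bin have a median of 0.21.

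Of the other pathway genes, 64 of 72 were tested in these libraries. FK866 raised 3 and lowered 5, beside 4.59% of all genes called, led by Sgk3 (0.79) and the AKT inhibitor Trib3 (0.71) and by Trib2 (-1.28) and Sesn1 (-1.06). NR added to FK866 raised 5, led by Trib2 (1.30) and Sesn1 (0.91), and lowered 2, Trib3 (-1.04) and Igfbp7 (-0.74), beside 4.81%. Ex527 raised Trib3 (0.86) and Sesn2 (0.64) and lowered Trib2 (-0.88), beside 0.596%. FK866 plus NR against no treatment gave 0 calls by edgeR, beside 0.901% of all genes. There 29 of the 64 had an unadjusted p under 0.05, beside 39.3% of all genes. Of the FOXO targets, 17 of 20 were tested. FK866 lowered 4 and raised 0, beside 4.59% of all genes called, led by Sesn1, which is on both lists, and the cyclin Ccng2 (-0.89). NR raised 4, led by Bnip3 (0.98) and Sesn1, and lowered Gadd45a (-0.72), beside 4.81%. Ex527 lowered Bnip3 (-0.74) and raised 0, beside 0.596%. In FK866 plus NR against no treatment edgeR called 0, beside 0.901%, and 5 of the 17 had an unadjusted p under 0.05, beside 39.3% of all genes. The forkhead genes Foxo1, Foxo3 and Foxo4 were called in none of the 4 comparisons.

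Across both systems, 23 of the 38 genes were called in no comparison. They were the receptors Insr and Igf1r, the adaptors Grb10 and Grb14, the PI3K catalytic subunits Pik3ca and Pik3cb, the kinases Akt1, Akt2, Sgk1, Gsk3a and Gsk3b, and the AKT substrates Tbc1d1 and Tbc1d4. The others were Foxo4, the mTOR genes Rptor, Rictor, Tsc1, Tsc2, Rheb and Rps6kb1, the AMPK subunits Prkaa2 and Prkag1, and the upstream kinase Stk11. With no fold minimum in the libraries labelled HL-1 the number was 18.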

How the data were processed

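RNA was sequenced from 18 hearts and 12 libraries labelled HL-1. Per the submitters' processing notes and the study's methods, the authors processed heart reads with Trimmomatic 0.39, STAR 2.7.10a on mm10, Picard 3.0.0 (duplicates removed) and featureCounts 2.0.4. They counted reads over exons, without reads that overlap several genes and without multi-mapping, ribosomal and mitochondrial reads, which lowers the counts of genes with close copies. HL-1 reads were aligned to mm10 with HISAT2, its version not given in the sources used here. The deposited heart table named as normalized holds whole-number counts, and the one named as raw holds a score, namely counts that the authors divided by DESeq2 size factors and rounded. The HL-1 table holds counts, with the authors' FPKM values beside them. Counts were analysed, and the normalized counts and FPKM were used only to check which columns are counts. Columns of the authors' own comparisons were not used.

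All libraries of a system entered 1 fit with 1 mean per group, in edgeR 4.0.16 (R 4.3.3, TMM normalization, two-sided quasi-likelihood tests, Benjamini-Hochberg adjustment over all genes). Heart genes with an average count over 5 (15443) and HL-1 genes passing filterByExpr (14760) were tested. Thresholds and the minimum average count in hearts were those of the study's methods, and filterByExpr was chosen here. The standard error was the absolute log2 fold change divided by the square root of F. The tests were tried on simulated data. Alternatives were DESeq2 1.42.0, DESeq2 size factors, no low-count filter, only the groups compared, a replicate block, each library left out, and, in HL-1, no fold minimum. Values in every library were given for the genes called, up to 8 per comparison, and others by range and count. The 38 genes, their roles and the other lists were chosen with earlier results of these data known. Gene positions are those of the HL-1 table on mm10, and all 38 had the same start and end in GENCODE M21. Promoter sequences came from RefSeq tables.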

Additional observations from a re-analysis of the deposited data

Results flagged for a closer look

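The change between ZT10 and ZT22 differed between old H2O and young hearts in 3 of the 38 genes, by edgeR's test of the difference itself. Of all 15443 genes tested, 6.89% were called in the same test, so the count is near the share over all genes. For Irs1 the difference was 1.33 ± 0.25 (SE, edgeR adjusted p = 0.00238) on the log2 scale, from -1.46 in young to -0.13 in old H2O hearts. For Prkab1 it was -0.59 ± 0.12 (SE, edgeR adjusted p = 0.00433), from 0.27 to -0.32, and both of these held in every alternative tried. For Deptor it was -0.61 ± 0.16 (SE, edgeR adjusted p = 0.0212), from 0.51 to -0.10, and the call depended on single hearts, as given with its values.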

How the results depend on the processing

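Over the 13 comparisons, 34 changes of single genes were called. Of these, 12 were called in every alternative and 22 were lost in at least 1, and 0 of 397 alternative values changed sign. Of 159 alternative counts of genes called, 119 stayed within 1.5 times the value reported. The causes of the moves were not tested. Leaving out 1 library at a time gave 5 to 8 genes called in young hearts between times (reported 8), 1 to 6 in old H2O (5), 2 to 6 in old NR (5), 2 to 5 in the age by time interaction (3), 0 to 1 with age at ZT10 (1), 2 to 6 at ZT22 (6) and 0 with NR at ZT10 (1). In the libraries labelled HL-1 it gave 1 to 3 with FK866 (2), 1 to 5 with NR added (3), 0 to 2 in FK866 plus NR against no treatment (0) and 0 to 1 with Ex527 (0). Fitting only the groups compared called 6 with age at ZT10, 3 with age at ZT22, 2 with NR at ZT10, 1 in the NR by time interaction, 1 with FK866 and 1 in FK866 plus NR against no treatment. It ended the calls of Irs2 and Prkab1 in young hearts, Foxo3 in old NR hearts, Irs1, Mtor, Deptor and Prkab2 with age at ZT22 and Prkab2 with FK866. With no fold minimum the 4 counts in HL-1 were 6, 6, 1 and 1, and DESeq2 called 1 in FK866 plus NR against no treatment.

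Counts over all genes moved as well. Fitting only the groups compared changed 906 to 1479 with age at ZT10, 2183 to 1168 at ZT22, 44 to 234 with NR at ZT10 and 54 to 2 at ZT22. In HL-1, no low-count filter changed 710 to 1166 with NR added, 133 to 764 in FK866 plus NR against no treatment and 88 to 488 with Ex527, DESeq2 gave 321 and 151 in the last 2, and no fold minimum gave 2047, 2259, 392 and 326 against 678, 710, 133 and 88. With the replicate number as a replicate block, 1 gene of the list was called in the NR by time interaction (Irs1) and 2 with age at ZT10 (Irs1 and Igf1r), and over all genes 70 with NR at ZT10, 86 at ZT22 and 8 in FK866 plus NR against no treatment. Same-numbered libraries did not deviate together throughout, with correlations from -0.26 to 0.32 in hearts and -0.59 to 0.22 in HL-1. In hearts most correlations of replicates 1 and 2 were positive, and those of replicate 3 had both signs. The numbers were not taken as pairs in the reported fit.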
